A study of Mus musculus with 12 samples.

Results

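Chemokine ligands and chemokine receptors were followed across 12 RNA-seq libraries of mouse adipose stromal vascular fraction, which holds the precursor, vascular and immune cells of the tissue without its mature adipocytes. Members were chosen by gene symbol alone: every row whose symbol begins with Ccl, Cxcl, Ccr, Cxcr or Ackr followed by a number, together with Cx3cl1, Cx3cr1, Xcl1 and Xcr1. This gave 62 rows and 61 distinct members among 24422 rows, comprising 38 ligands, 19 conventional receptors and 4 atypical receptors. Ccl21b and Ccl21c held identical counts in all 12 libraries and were counted once, as Ccl21b. Ccl21a differed from them and was kept as a member of its own. The Ccl21 genes are near-identical copies, and 5 rows shared the Ccl21b counts while 2 rows shared those of Ccl21a, so their levels are uncertain.

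All mice carried 1 knock-in allele at p21, the Cdkn1a gene, and the p21 promoter drove the inserted sequence, so expression was limited to cells in which that promoter was active. The 4 groups of 3 libraries were p21+/mcherry with standard diet (called SD mCherry; replicates 1, 2 and 3), p21+/mcherry with high-fat diet (called HFD mCherry; replicates 15, 17 and 20), p21+/Tert on the high-fat diet (HFD Tert, replicates 25, 26 and 27) and p21+/TertCi on the high-fat diet (HFD TertCi, replicates 30, 31 and 33). Tert is the catalytic subunit of telomerase and TertCi a catalytically inactive form. The standard diet was given only to the mCherry genotype, no wild-type p21 group was included, and the series' design text gives the high-fat diet control as p21+/- where the sample labels give p21+/mcherry. Age, sex, fat depot and batch are not in the labels. Nothing in the labels says that the replicates came from separate animals, so p-values measure the spread between these samples, which may be technical.

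Chemokines are small secreted proteins that direct the migration of leukocytes through G protein-coupled receptors, and their names follow the spacing of conserved cysteines near the amino terminus. CXC chemokines with a glutamate-leucine-arginine motif before those cysteines draw neutrophils through Cxcr2, several CC chemokines draw monocytes through Ccr2 and eosinophils through Ccr3, and the atypical receptors bind chemokines without G protein signalling and remove or transport them. In obese adipose tissue, chemokines made by stromal and immune cells are known for recruiting monocytes that become macrophages.

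Cxcl5, Cxcl3, Cxcl1 and Cxcl2, neutrophil-attracting CXC ligands, lie together on chromosome 5 of the mm10 mouse genome, at chr5:90759360-90761624, chr5:90786103-90789600, chr5:90891241-90893115 and chr5:90903871-90905938. RefSeq's GRCm38.p6 promoter table, which gives 250 bases before to 50 bases after each start, held 53 promoters for 46 of the 61 members. Cxcl5 had no entry there, so its promoter was not searched. Cxcl15, at chr5:90794534-90803067, lies between Cxcl3 and Cxcl1. The promoters of Cxcl3, Cxcl1 and Cxcl2 are shown because the 3 ligands lie near one another, did not overlap between the diet groups and have a common sequence upstream. The longest run that the 3 share within the 250 bases before the start is GGGAATTTCCC, of 11 bases, a form of the sequence bound by NF-kappaB, and capitals mark it. Windows are on the + strand, at chr5:90785851-90786150 (Cxcl3), chr5:90890995-90891294 (Cxcl1) and chr5:90903649-90903948 (Cxcl2).
Cxcl3: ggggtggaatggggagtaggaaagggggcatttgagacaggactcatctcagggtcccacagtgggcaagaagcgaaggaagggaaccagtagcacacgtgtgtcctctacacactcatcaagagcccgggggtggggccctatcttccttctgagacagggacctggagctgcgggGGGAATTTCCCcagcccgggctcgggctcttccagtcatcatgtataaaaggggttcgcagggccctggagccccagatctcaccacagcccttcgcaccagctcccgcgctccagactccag
Cxcl1: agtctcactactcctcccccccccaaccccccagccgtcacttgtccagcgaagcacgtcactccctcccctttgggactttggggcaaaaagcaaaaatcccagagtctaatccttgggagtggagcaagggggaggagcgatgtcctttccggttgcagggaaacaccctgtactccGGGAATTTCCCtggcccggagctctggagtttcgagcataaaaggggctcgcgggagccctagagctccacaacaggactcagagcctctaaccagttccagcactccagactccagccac
Cxcl2: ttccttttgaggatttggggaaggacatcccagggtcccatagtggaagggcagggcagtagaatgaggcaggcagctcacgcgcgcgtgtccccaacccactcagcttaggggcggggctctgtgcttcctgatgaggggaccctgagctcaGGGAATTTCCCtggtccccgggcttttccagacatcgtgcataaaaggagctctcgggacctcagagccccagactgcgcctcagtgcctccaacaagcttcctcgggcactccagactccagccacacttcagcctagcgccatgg
Its first base lay at -73 in Cxcl3, -71 in Cxcl1 and -97 in Cxcl2 relative to the start. Searched on both strands, it was present in these 3 of the 53 member promoters (5.66%), which were used to find it, and in 14 of all 32851 promoters in the table (0.0426%). A match describes the letters in this window and was not tied to any binding.

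Libraries held 16430330 to 19486965 counts. Levels are given as CPM, read counts scaled to the library total after TMM adjustment, so CPM compares 1 gene between libraries and not genes of different length. The knock-in transcript checked the labels only as mCherry against knock-in. The added mCherry_Tert entry had 0 counts in all 6 mCherry libraries and 33 to 86 in the 6 Tert and TertCi libraries. Tert had 8 to 78 counts in the former and 131 to 304 in the latter. Both entries overlapped between the Tert and TertCi libraries, so the check could not tell these forms apart, and it does not bear on diet. Libraries of 1 group differed in their make-up. Summed over 10 genes of the epididymal epithelium, which lies against the epididymal fat pad, HFD mCherry replicate 15 held 16243 CPM while replicates 17 and 20 held 658 and 39.5, and the sum spanned 293 to 18819 in SD mCherry, 36.5 to 8048 with Tert and 261 to 10029.8 with TertCi. Stromal progenitor genes (10 genes, such as Pdgfra) were present throughout, at a sum of 2789.9 to 4409.7 CPM in SD mCherry, 7235 to 21182 in HFD mCherry, 4201 to 10228 with Tert and 3860.03 to 7158 with TertCi.

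Of the 61 members, 16 averaged 100 CPM or more over the 12 libraries, 9 averaged 20 to 100, 20 averaged 1 to 20 and 16 were under 1 CPM. The filter on low counts passed 51 members (31 ligands, 16 receptors and the 4 atypical receptors). The 10 that did not pass were Ccl1, Ccl19, Ccl20, Ccl26, Ccl27b, Ccr1l1, Ccr6, Cxcl15, Cxcl17 and Cxcr1. Ccl26 had 0 counts in every library, and the highest count of any of the 10 was 17, for Ccl19. Per kilobase of exon, Cxcl1 had the highest group mean of all members in each of the 4 groups, at 529 CPM per kb in SD mCherry, 2782 in HFD mCherry, 1398 with Tert and 1853 with TertCi. Ccl7, Ccl2 and Cxcl2 filled the next 3 places in every group. Reads of Cxcl1, Cxcl2, Ccl2 and Ccl7 together made up 58.3% to 80.8% of all ligand CPM in a library.

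The summed CPM of all ligands was 2891, 4051 and 3649 in SD mCherry, 5969, 18663 and 16411 in HFD mCherry, 5440.5, 6123 and 12024 with Tert, and 5794, 12355 and 7696 with TertCi. Every high-fat diet library was above every standard diet library. Within each high-fat diet group 1 library or a pair stood above the rest: replicates 17 and 20 in HFD mCherry, 27 with Tert and 31 with TertCi. Among the 25 members averaging 20 CPM or more, the highest value of the group fell in HFD mCherry replicate 17 for 21 and in replicate 20 for the other 4, in HFD Tert replicate 27 for 23, and in HFD TertCi replicate 31 for 19. The same count was not made over all genes, so it cannot be read as particular to chemokines. These 4 libraries, replicates 17, 20, 27 and 31, also had lower epididymal sums than the rest of their groups. Whether that difference in make-up bears on the chemokine values was not tested beyond the fit with the epididymal level as a covariate, given below.

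**Figure D1:**
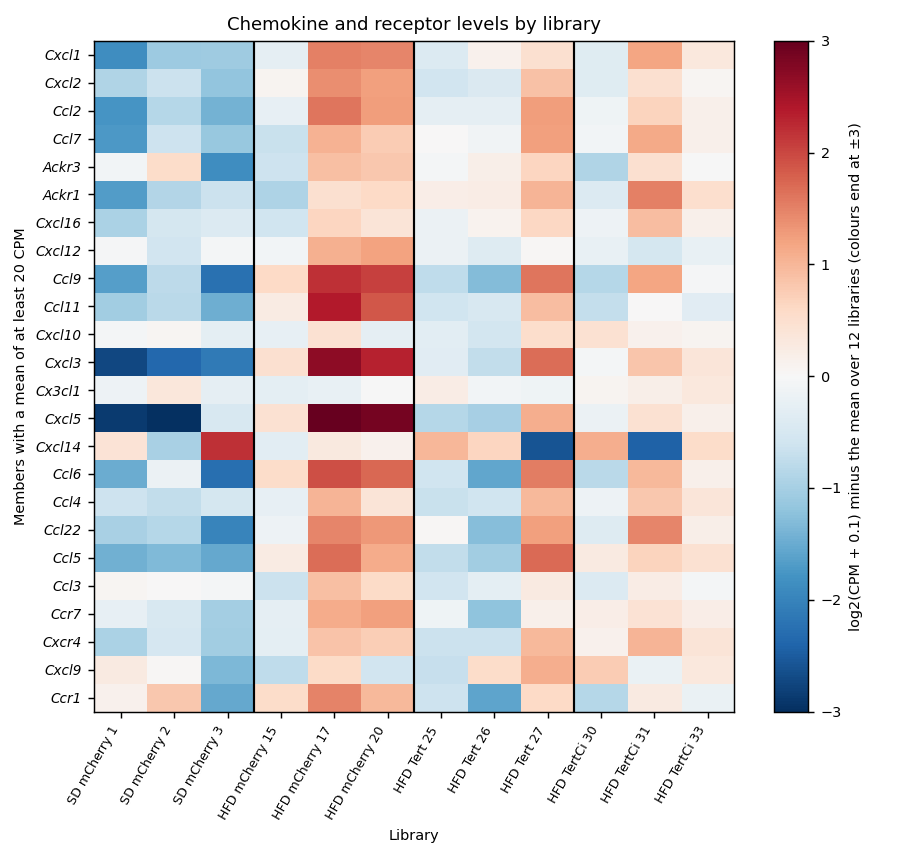
Each column is 1 of the 12 libraries and each row 1 of 24 members averaging 20 CPM or more; colour gives log2(CPM + 0.1) minus the member's mean over the 12 libraries, with the colour scale ending at 3 in either direction. HFD mCherry replicates 17 and 20, HFD Tert replicate 27 and HFD TertCi replicate 31 are the libraries in which most rows are high.

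The diet comparison set HFD mCherry against SD mCherry. Cxcl1, Cxcl2, Cxcl3, Cxcl5, Ccl2, Ccl5, Ccl6, Ccl9, Ccl11 and Ccr3 stood higher in every HFD mCherry library than in any SD mCherry library, and Ccl28 had the lowest fold change. The median log2 fold change was 0.98 over the 51 members tested and -0.08 over all 16713 genes tested, with 38 members above 0 (74.5%, against 45.9% of all genes) and 13 below. edgeR called 0 members at an adjusted p under 0.05, against 0.0479% of all genes (0.0419% higher and 0.00598% lower). At an unadjusted p under 0.05 it counted 22 members higher (43.1%, against 14.1% of all genes) and 1 lower (1.96%, against 10%). The groups did not overlap for 19 members that were higher (37.3%, against 13.9% of all genes) and for 1 that was lower (Ccl25, 1.96%, against 11.6%). DESeq2 called 15 of 46 members higher (32.6%, against 8.04%) and 1 lower, Ccl28 (2.17%, against 4.57%). The direction of each difference below is therefore a description where only edgeR is given. In bulk samples, fewer cells of a type and less RNA per cell cannot be told apart.

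Adding the epididymal level of each library as a covariate, edgeR called 11 members, all higher (7.68% of all genes called): Cxcl1, Cxcl2, Cxcl3, Ccl2, Ccl5, Ccl6, Ccl7, Ccl9, Ccl11, Ccl22 and Ccr3. Without HFD mCherry replicate 15 it called 15 of 52 members, 14 higher and 1 lower (12.2% of all genes called). Without HFD Tert replicate 27 it called 9 higher (4% of all genes called). That library is in neither diet group and enters through the filter on low counts, the scaling and the shared estimate of spread. The member median without SD mCherry replicate 3 was 0.60, and without SD mCherry replicate 2 it was 1.21.

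Cxcl3 and Cxcl5, neutrophil-attracting CXC ligands, had the highest diet fold changes. Cxcl3 had 13.6, 17.5 and 20.6 CPM in SD mCherry, 127, 583 and 446 in HFD mCherry, 72.1, 54.2 and 291 with Tert, and 86.5, 161 and 117 with TertCi. Every high-fat diet library lay above every standard diet library, and both knock-in groups overlapped HFD mCherry. The diet difference was a log2 fold change of 4.48 ± 0.750 (SE, edgeR adjusted p = 0.0652, DESeq2 adjusted p = 1.67e-08), the highest of the 51 members. Cxcl5, made by stromal and epithelial cells, had 6.86, 5.37 and 35.9 CPM in SD mCherry, 69.0, 604 and 369 in HFD mCherry, 27.7, 25.2 and 107 with Tert, and 44.9, 69.8 and 56.3 with TertCi. SD mCherry replicate 3 exceeded 2 of the HFD Tert libraries, whereas none of the SD mCherry values reached the HFD mCherry range. Its diet difference was 4.44 ± 1.01 (SE, edgeR adjusted p = 0.0708, DESeq2 adjusted p = 3.58e-05).

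Cxcl1, the keratinocyte-derived chemokine, had 664, 1143 and 1166 CPM in SD mCherry, 2016, 6900.1 and 6733 in HFD mCherry, 1834, 2651 and 3379 with Tert, and 1876, 5526 and 3022 with TertCi. The diet groups did not overlap, and the 3 high-fat diet groups overlapped one another. Its diet difference was 2.40 ± 0.550 (SE, edgeR adjusted p = 0.0708, DESeq2 adjusted p = 0.00052). Cxcl2, its close paralogue, had 535, 643 and 436 CPM in SD mCherry, 1049, 2606 and 2340.1 in HFD mCherry, 667, 739.7 and 1825 with Tert, and 778, 1395 and 1030.1 with TertCi. Its standard diet libraries lay below all others, and the lowest Tert library lay just above them. The diet difference was 1.89 ± 0.469 (SE, edgeR adjusted p = 0.0739, DESeq2 adjusted p = 0.0024). Cxcr2, the receptor of these 4 ligands, was near the counting floor, with 0.0508, 0.0484 and 0.0578 CPM in SD mCherry, 0.110, 0.780 and 0.894 in HFD mCherry, and 0.0583, 0.640 and 0 with Tert and 0.102, 0 and 0.150 with TertCi. A count of 1 lay behind each of the SD mCherry values, and 2, 13 and 15 counts behind those of HFD mCherry. DESeq2 gave Cxcr2 no adjusted p, and edgeR gave 3.34 ± 1.44 (SE, adjusted p = 0.192). Neutrophil markers summed to 3.39 to 7.01 CPM in SD mCherry, 11.6 to 20.05 in HFD mCherry, 2.85 to 11.3 with Tert and 6.77 to 11.6 with TertCi over 7 genes, of which 1 to 4 were at 0 in a library. The part of those cells in the ligand values was not tested.

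**Figure D2:**
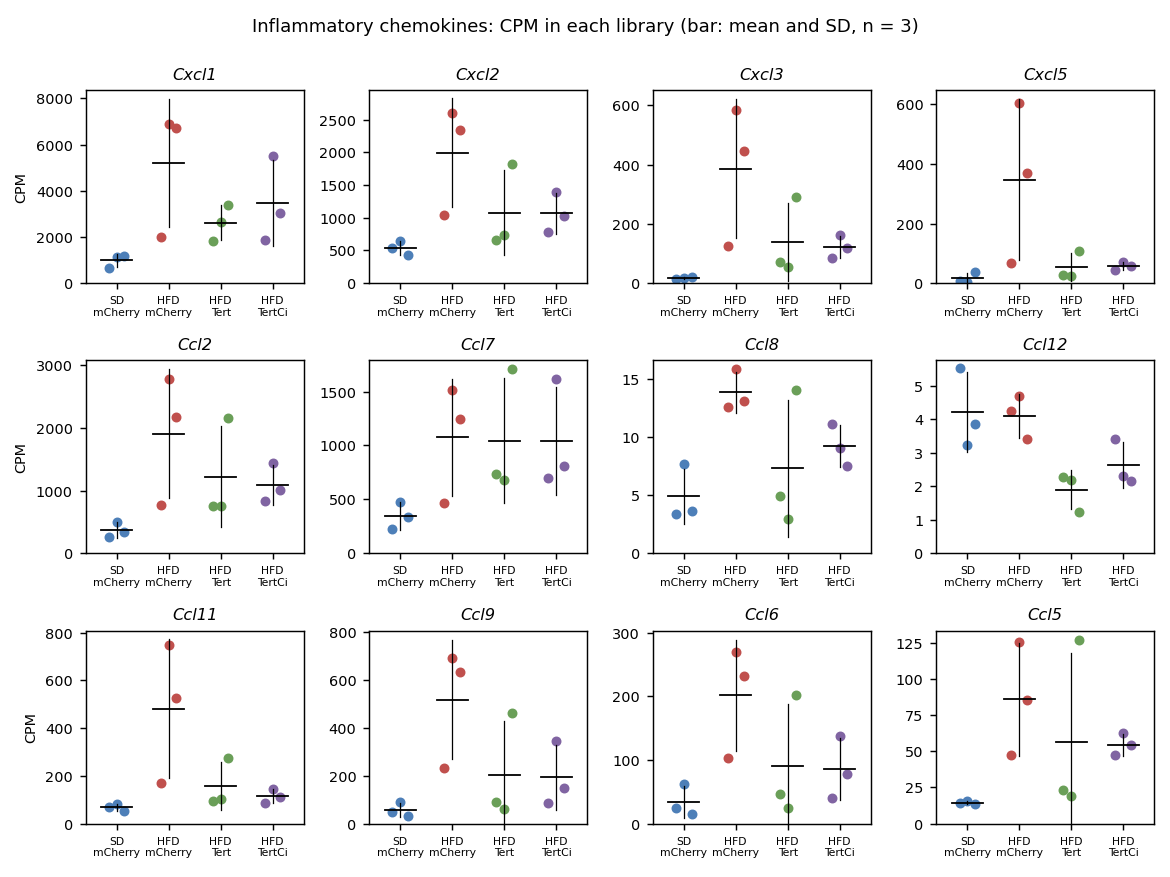
CPM in each library for 12 ligands, 1 panel each, by group (SD mCherry, HFD mCherry, HFD Tert, HFD TertCi; 3 libraries per group), with the mean and SD. In the panels of Cxcl1, Cxcl2, Cxcl3 and Cxcl5 the HFD mCherry libraries lie above the SD mCherry libraries, and in all 4 panels the 3 HFD mCherry libraries spread widely.

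Monocyte-attracting CC ligands of chromosome 11 formed the second group. Ccl2, Ccl7, Ccl11, Ccl12 and Ccl8 are neighbours between chr11:82035571 and chr11:82116799. Ccl2, the main ligand of Ccr2, had 265, 505 and 341 CPM in SD mCherry, 768, 2776 and 2175 in HFD mCherry, 753, 758 and 2158 with Tert, and 828, 1447 and 1010.3 with TertCi. All 9 high-fat diet values exceeded the standard diet values. The diet difference was 2.36 ± 0.563 (SE, edgeR adjusted p = 0.0727, DESeq2 adjusted p = 0.000969). Ccl7, another Ccr2 ligand, had 221, 477 and 335 CPM in SD mCherry, 465, 1514 and 1244 in HFD mCherry, 739, 680.2 and 1713 with Tert, and 697, 1619 and 811 with TertCi. HFD mCherry replicate 15 lay inside the standard diet range, and the knock-in libraries all lay above it. Its diet difference was 1.64 ± 0.547 (SE, edgeR adjusted p = 0.123, DESeq2 adjusted p = 0.032), and the knock-in differences were -0.04 ± 0.533 in both HFD Tert (edgeR adjusted p = 0.977) and HFD TertCi (edgeR adjusted p = 0.979).

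Their neighbours Ccl8 and Ccl12 are monocyte chemoattractants as well. Ccl8 had 3.41, 7.65 and 3.64 CPM in SD mCherry, 12.6, 15.8 and 13.1 in HFD mCherry, 4.89, 2.98 and 14.0 with Tert, and 11.1, 9.06 and 7.51 with TertCi. Its diet groups were apart, with a log2 fold change of 1.497 ± 0.536 (SE, edgeR adjusted p = 0.141). Ccl12 had 4.22 ± 1.19 CPM (SD, n = 3) in SD mCherry, 4.11 ± 0.653 in HFD mCherry, 1.90 ± 0.577 with Tert and 2.63 ± 0.686 with TertCi, with a diet difference of -0.04 ± 0.389 (SE, edgeR adjusted p = 0.958). Ccr2, the receptor of Ccl2 and Ccl7 on classical monocytes, had 17.2, 15.4 and 3.70 CPM in SD mCherry, 14.2, 32.6 and 27.1 in HFD mCherry, 7.05, 8.63 and 21.4 with Tert, and 9.68, 13.8 and 11.1 with TertCi. The diet groups overlapped for Ccr2 (1.02 ± 0.580, SE, edgeR adjusted p = 0.294), and the HFD TertCi libraries lay just under the lowest HFD mCherry library.

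Ccl9 and Ccl6, adjacent ligands of Ccr1 that myeloid cells make, stood out among the macrophage-type chemokines. Ccl9 had 48.4, 88.6 and 31.9 CPM in SD mCherry, 231, 689 and 629.8 in HFD mCherry, 89.5, 61.1 and 461 with Tert, and 84.3, 345 and 148 with TertCi. The diet groups were apart, and HFD Tert replicate 27 and HFD TertCi replicate 31 reached the HFD mCherry range while the other 4 knock-in libraries did not. Its diet difference was 3.20 ± 0.854 (SE, edgeR adjusted p = 0.083, DESeq2 adjusted p = 0.00137). Ccl6 had 24.8, 61.8 and 14.6 CPM in SD mCherry, 103, 269.9 and 232 in HFD mCherry, 46.6, 23.8 and 203 with Tert, and 40.2, 138 and 78.6 with TertCi. Here too HFD Tert replicate 27 and HFD TertCi replicate 31 were the only knock-in libraries within the HFD mCherry range, and the diet difference was 2.58 ± 0.840 (SE, edgeR adjusted p = 0.118, DESeq2 adjusted p = 0.0134). Ccr1, their receptor, had 27.9, 44.5 and 8.67 CPM in SD mCherry, 37.3, 71.9 and 50.4 in HFD mCherry, 16.4, 8.42 and 38.6 with Tert, and 14.0, 30.6 and 22.0 with TertCi. Its diet groups overlapped (0.98 ± 0.628, SE, edgeR adjusted p = 0.348), and all HFD TertCi libraries lay below all HFD mCherry libraries.

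Ccl5, Ccl3 and Ccl4 attract macrophages and T cells. Ccl5 had 14.3, 15.7 and 13.5 CPM in SD mCherry, 47.1, 125 and 85.3 in HFD mCherry, 23.4, 19.0 and 127 with Tert, and 47.3, 62.5 and 54.1 with TertCi. The standard diet libraries were tightly placed below all others, and HFD Tert was split, with replicate 27 at the top of all 12 libraries. Its diet difference was 2.57 ± 0.657 (SE, edgeR adjusted p = 0.0761, DESeq2 adjusted p = 0.00224). Ccl4 had 54.4, 50.6 and 58.2 CPM in SD mCherry, 70.4, 171 and 109.8 in HFD mCherry, 52.4, 55.5 and 166 with Tert, and 75.4, 147 and 108 with TertCi. For Ccl4 the diet groups did not overlap (1.11 ± 0.469, SE, edgeR adjusted p = 0.187), and the log2 fold change was 0.73 without HFD mCherry replicate 17. Ccl3 had 47.6, 46.0 and 43.7 CPM in SD mCherry, 29.1, 84.8 and 67.6 in HFD mCherry, 30.6, 37.2 and 54.5 with Tert, and 34.2, 53.3 and 43.8 with TertCi. No group stood apart for Ccl3 (diet 0.40 ± 0.355, SE, edgeR adjusted p = 0.487).

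Ccl11, or eotaxin, attracts eosinophils through Ccr3 and is made by stromal cells. The diet, Tert and TertCi comparisons share the HFD mCherry libraries, so their values are not independent, here and for every member below. Its level was 70.1, 81.6 and 52.1 CPM in SD mCherry, 169.6, 748 and 527 in HFD mCherry, 95.8, 104 and 274 with Tert, and 88.2, 145 and 113 with TertCi. Every high-fat diet library was above the standard diet, HFD TertCi lay wholly below HFD mCherry, and HFD Tert replicate 27 lay above the lowest HFD mCherry library. The differences were 2.82 ± 0.563 for diet (SE, edgeR adjusted p = 0.0659, DESeq2 adjusted p = 6.04e-05), -1.61 ± 0.539 for Tert (SE, edgeR adjusted p = 0.225, DESeq2 adjusted p = 0.0614) and -2.06 ± 0.547 for TertCi (SE, edgeR adjusted p = 0.195, DESeq2 adjusted p = 0.0127). Ccr3 was a low-count receptor, with read counts of 10, 24 and 2 for SD mCherry, 43, 93 and 113 in HFD mCherry, 10, 3 and 23 with Tert, and 7, 15 and 17 with TertCi. In CPM these were 0.508, 1.16 and 0.116, then 2.37, 5.58 and 6.74, then 0.583, 0.160 and 1.35, and then 0.356, 0.964 and 0.851. HFD mCherry was the only group with values above 2 CPM, apart from all 9 other libraries. The Ccr3 differences were 3.02 ± 0.917 for diet (SE, edgeR adjusted p = 0.103, DESeq2 adjusted p = 0.0101), -2.80 ± 0.910 for Tert (SE, edgeR adjusted p = 0.22, DESeq2 adjusted p = 0.0352) and -2.75 ± 0.907 for TertCi (SE, edgeR adjusted p = 0.239, DESeq2 adjusted p = 0.0445). Eosinophil marker sums overlapped between the groups: 5 genes summed to 1.65 to 3.87 CPM in SD mCherry, 1.60 to 3.84 in HFD mCherry, 2.24 to 3.99 with Tert and 3.45 to 3.92 with TertCi, with 1 to 3 of the 5 at 0 in a library. Mast cells also carry Ccr3. Mast cell markers (8 genes, 7 tested) summed to 38.3 to 185 CPM in SD mCherry, 98.5 to 321 in HFD mCherry, 76.0 to 137 with Tert and 98.9 to 112 with TertCi, with 0 to 2 of the 8 at 0 in a library (Fcer1a, Ms4a2 or both). Their median was 2.20 for diet (6 of 7 above 0), -2.05 for Tert and -2.07 for TertCi (7 of 7 below 0 in each). edgeR called 0, and DESeq2 called Cpa3, Tpsb2 and Cma1 higher for diet (8.04% of all genes) and Cpa3 and Tpsb2 lower for Tert (3.1%) and TertCi (2.58%). The part of mast cells in the Ccr3 values was not tested. Ccl24, a further Ccr3 ligand, had 4.93, 10.9 and 3.35 CPM in SD mCherry, 6.67, 13.7 and 12.2 in HFD mCherry, 8.21, 6.56 and 16.95 with Tert, and 7.03, 16.1 and 8.21 with TertCi. All groups overlapped for Ccl24 (diet 0.76 ± 0.544, SE, edgeR adjusted p = 0.396).

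**Figure D3:**
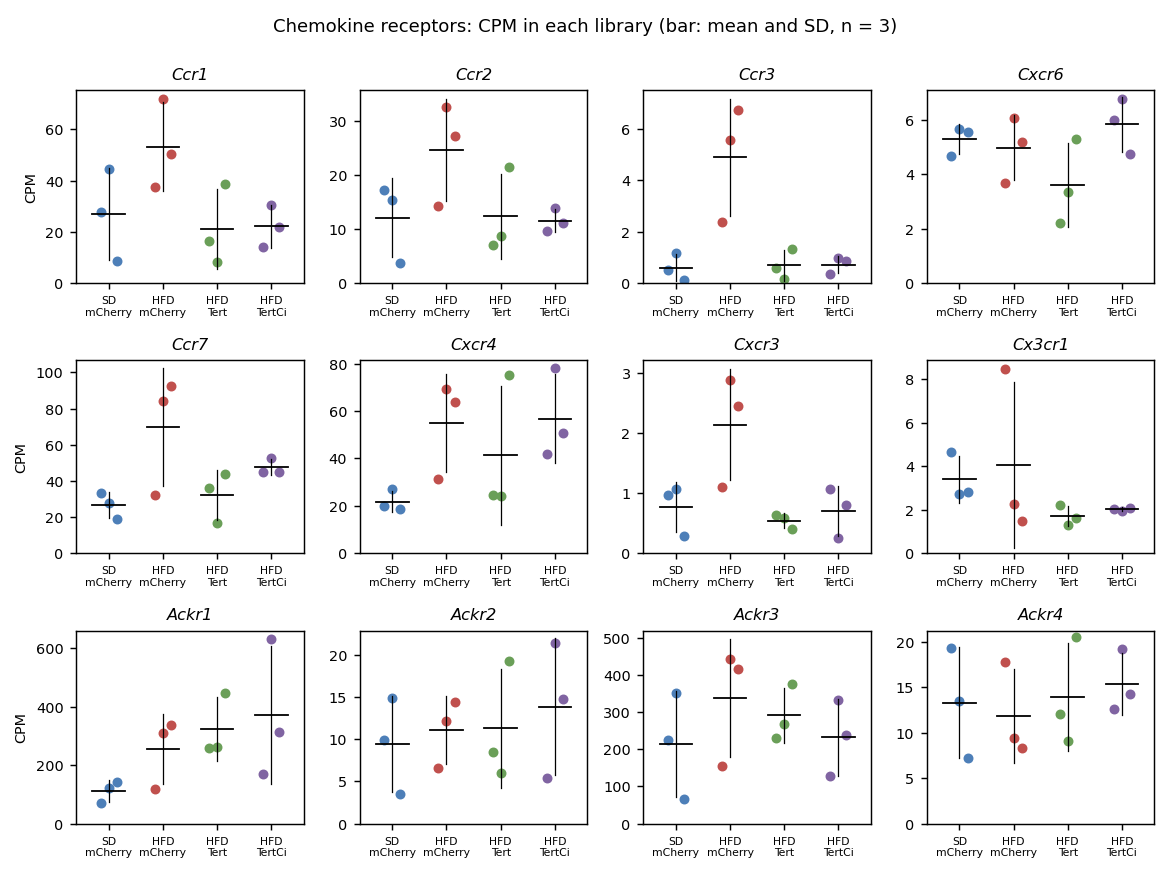
CPM in each library for 12 receptors, 1 panel each, by group (3 libraries per group), with the mean and SD. In the Ccr3 and Cxcr3 panels the 3 HFD mCherry libraries lie above the 9 libraries of the other groups. For Cxcr3 the gap is narrow and the read counts overlap. The Ackr1, Ackr2 and Ackr4 panels show overlapping groups on the high-fat diet.

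Ccl22, a macrophage and dendritic cell ligand of Ccr4, had 31.1, 34.0 and 15.5 CPM in SD mCherry, 54.9, 169 and 150.5 in HFD mCherry, 62.6, 25.3 and 145 with Tert, and 47.3, 169 and 69.6 with TertCi. The diet groups did not overlap (2.22 ± 0.697, SE, edgeR adjusted p = 0.11, DESeq2 adjusted p = 0.0154), and both knock-in groups spanned most of the HFD mCherry range. Ccl17, its neighbour and fellow Ccr4 ligand, had 1.98, 1.89 and 1.45 CPM in SD mCherry, 1.32, 2.52 and 1.73 in HFD mCherry, 2.51, 0.746 and 2.46 with Tert, and 5.30, 10.3 and 1.502 with TertCi. Replicates 30 and 31 of HFD TertCi were above all other libraries while replicate 33 was not, and the difference from HFD mCherry was 1.62 ± 0.678 (SE, edgeR adjusted p = 0.308). That difference was 0.87 without HFD TertCi replicate 31. Ccr4 itself had 0.712, 0.387 and 0 CPM in SD mCherry, 0.276, 0.900 and 0.358 in HFD mCherry, 0.350, 0 and 1.29 with Tert, and 0.153, 0 and 0.601 with TertCi (diet 0.46 ± 1.51, SE, edgeR adjusted p = 0.866).

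Ccr7, which guides mature dendritic cells to lymph nodes, had 33.2, 27.9 and 19.3 CPM in SD mCherry, 32.3, 84.4 and 92.4 in HFD mCherry, 36.0, 16.9 and 43.8 with Tert, and 45.2, 52.7 and 44.8 with TertCi. HFD mCherry replicate 15 lay within the standard diet range, and every HFD Tert library was below every HFD TertCi library. Its differences were 1.38 ± 0.425 for diet (SE, edgeR adjusted p = 0.105, DESeq2 adjusted p = 0.0288) and -1.11 ± 0.422 for Tert (SE, edgeR adjusted p = 0.248). Ccl21a and Ccl21b, Ccr7 ligands of lymphatic vessels, overlapped in all groups. Ccl21a had 7.01, 6.63 and 2.49 CPM in SD mCherry, 1.38, 5.10 and 6.38 in HFD mCherry, 6.64, 2.45 and 10.7 with Tert, and 3.16, 12.02 and 9.01 with TertCi. Ccl21b had 5.998, 4.41 and 1.79 CPM in SD mCherry, 2.43, 4.08 and 5.01 in HFD mCherry, 5.07, 2.40 and 10.9 with Tert, and 3.16, 13.1 and 6.66 with TertCi. The highest library of each was HFD TertCi replicate 31. Xcr1, a receptor of cross-presenting dendritic cells, had 2.64, 3.44 and 3.01 CPM in SD mCherry, 4.74, 8.94 and 8.11 in HFD mCherry, 3.50, 1.07 and 7.51 with Tert, and 2.60, 4.76 and 4.30 with TertCi. Its diet groups did not overlap (1.26 ± 0.590, SE, edgeR adjusted p = 0.219), whereas its ligand Xcl1 was at 0.508, 0 and 0.578 CPM in SD mCherry, 0.221, 0.420 and 0.239 in HFD mCherry, 0.524, 0.533 and 0.821 with Tert, and 0.611, 0 and 0.350 with TertCi (diet -0.29 ± 1.23, SE, edgeR adjusted p = 0.899). Dendritic cell markers (8 genes) summed to 138 to 207 CPM in SD mCherry, 257 to 433 in HFD mCherry, 251 to 485 with Tert and 301 to 489 with TertCi, and their part in these values was not tested.

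Cxcl12, the stromal chemokine that retains leukocytes and progenitors through Cxcr4, had 230.1, 158 and 229 CPM in SD mCherry, 225, 495 and 548 in HFD mCherry, 209, 183 and 243 with Tert, and 203, 164 and 203 with TertCi. HFD mCherry replicates 17 and 20 stood above the other 10 libraries, and replicate 15 did not. The differences were 1.04 ± 0.314 for diet (SE, edgeR adjusted p = 0.101, DESeq2 adjusted p = 0.0292), -0.997 ± 0.313 for Tert (SE, edgeR adjusted p = 0.216, DESeq2 adjusted p = 0.0616) and -1.16 ± 0.314 for TertCi (SE, edgeR adjusted p = 0.197, DESeq2 adjusted p = 0.0294). Cxcr4 had 19.8, 27.1 and 18.6 CPM in SD mCherry, 31.2, 69.5 and 63.9 in HFD mCherry, 24.6, 24.4 and 75.1 with Tert, and 41.8, 78.0 and 50.6 with TertCi. Its diet groups were apart (1.33 ± 0.475, SE, edgeR adjusted p = 0.14), and the knock-in groups reached as high as HFD mCherry. Ackr3, the atypical receptor that takes up Cxcl12, had 226, 352 and 66.1 CPM in SD mCherry, 154, 444 and 417 in HFD mCherry, 231, 268 and 376 with Tert, and 127, 334 and 237 with TertCi. All 4 groups overlapped for Ackr3 (diet 0.66 ± 0.584, SE, edgeR adjusted p = 0.49).

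Cxcl9, Cxcl10 and Cxcl11 are the interferon-induced ligands of Cxcr3, although the GENCODE annotation marks mouse Cxcl11 as a polymorphic pseudogene. Cxcl10 had 159, 171 and 136 CPM in SD mCherry, 139, 229 and 137 in HFD mCherry, 133, 113 and 238 with Tert, and 227, 181 and 176 with TertCi. Cxcl9 had 35.0, 29.7 and 11.4 CPM in SD mCherry, 17.2, 43.2 and 19.6 in HFD mCherry, 18.1, 43.1 and 62.8 with Tert, and 49.3, 25.3 and 36.6 with TertCi. Neither Cxcl10 nor Cxcl9 separated the groups in any of the 4 comparisons, and their diet differences, in that order, were 0.12 ± 0.303 (SE, edgeR adjusted p = 0.83) and 0.07 ± 0.542 (SE, edgeR adjusted p = 0.945). Cxcl11 averaged 0.900 ± 0.264 CPM (SD, n = 3) in SD mCherry and 2.83 ± 1.24 in HFD mCherry, without overlap (1.65 ± 0.686, SE, edgeR adjusted p = 0.183). Cxcr3, their receptor on activated T cells, had 0.966, 1.07 and 0.289 CPM in SD mCherry, 1.10, 2.88 and 2.44 in HFD mCherry, 0.641, 0.586 and 0.411 with Tert, and 1.07, 0.257 and 0.801 with TertCi. In CPM, HFD mCherry lay above the other 3 groups, by a narrow gap for replicate 15. Cxcr3 read counts were low, at 5 to 22 in SD mCherry, 20 to 48 in HFD mCherry, 7 to 11 with Tert and 4 to 21 with TertCi. As counts, HFD mCherry thus overlapped SD mCherry and HFD TertCi. The Cxcr3 differences were 1.46 ± 0.693 for diet (SE, edgeR adjusted p = 0.224), -1.96 ± 0.709 for Tert (SE, edgeR adjusted p = 0.238) and -1.58 ± 0.697 for TertCi (SE, edgeR adjusted p = 0.33). T cell markers (8 genes) summed to 18.7 to 31.8 CPM in SD mCherry, 23.3 to 41.1 in HFD mCherry, 19.2 to 39.5 with Tert and 28.9 to 35.0 with TertCi.

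Cx3cl1 and Cxcl16 are the transmembrane chemokines, shed from the cell surface. Cx3cl1, or fractalkine, had 119, 167 and 109 CPM in SD mCherry, 108, 112 and 132 in HFD mCherry, 155, 124 and 120.3 with Tert, and 140.2, 149 and 164 with TertCi. HFD TertCi was just above HFD mCherry in every library, by a log2 fold change of 0.37 ± 0.202 (SE, edgeR adjusted p = 0.423). Cx3cr1, its receptor on monocytes and resident macrophages, had 4.63, 2.71 and 2.83 CPM in SD mCherry, 8.44, 2.28 and 1.49 in HFD mCherry, 2.21, 1.28 and 1.64 with Tert, and 2.04, 1.93 and 2.10 with TertCi. HFD mCherry replicate 15 was the highest of the 12 libraries, and the other 2 of its group lay among the rest. Cxcl16 had 125, 169 and 183 CPM in SD mCherry, 159, 378 and 317 in HFD mCherry, 216, 261 and 373 with Tert, and 219, 458 and 269 with TertCi. Every knock-in library exceeded the standard diet libraries for Cxcl16, but HFD mCherry replicate 15 did not (diet 0.84 ± 0.376, SE, edgeR adjusted p = 0.203). Its receptor Cxcr6 had 4.68, 5.66 and 5.55 CPM in SD mCherry, 3.69, 6.06 and 5.19 in HFD mCherry, 2.21, 3.36 and 5.28 with Tert, and 6.01, 6.75 and 4.75 with TertCi, without separation in any comparison (diet -0.09 ± 0.369, SE, edgeR adjusted p = 0.898). Exons of Cxcl16 overlap those of Zmynd15 on the opposite strand.

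Ackr1, the endothelial scavenger known as the Duffy antigen receptor, had 69.8, 121 and 143 CPM in SD mCherry, 118, 309 and 338 in HFD mCherry, 258, 261 and 449 with Tert, and 168, 633 and 315 with TertCi. All 6 knock-in libraries lay above the standard diet libraries, and HFD mCherry replicate 15 lay among the latter. The differences were 1.197 ± 0.527 for diet (SE, edgeR adjusted p = 0.199), 0.34 ± 0.520 for Tert (SE, edgeR adjusted p = 0.772) and 0.55 ± 0.521 for TertCi (SE, edgeR adjusted p = 0.653). Ackr1 shares 361 exon bases with Cadm3 on the same strand, so reads of the pair could be split. Endothelial markers (8 genes) summed to 849 to 1103 CPM in SD mCherry, 1141 to 2138 in HFD mCherry, 1929 to 3937 with Tert and 1686 to 4357 with TertCi, and their part in the Ackr1 values was not tested. Ackr2, which degrades inflammatory CC chemokines, and Ackr4, which scavenges Ccl19 and Ccl21, overlapped in all groups. Ackr2 averaged 9.40 to 13.8 CPM and Ackr4 11.8 to 15.4 CPM over the 4 groups.

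Ccl28, an epithelial chemokine of mucosal tissues, was the member with the lowest diet difference. Its read counts were 1343, 1945 and 141 for SD mCherry, 182, 41 and 126 in HFD mCherry, 11, 17 and 5 with Tert, and 62, 19 and 39 with TertCi. In CPM it was at 68.3, 94.2 and 8.15 in SD mCherry, 10.04, 2.46 and 7.51 in HFD mCherry, 0.641, 0.906 and 0.293 with Tert, and 3.16, 1.22 and 1.95 with TertCi. SD mCherry replicate 3 overlapped HFD mCherry, and HFD Tert lay below all 9 other libraries. The differences were -3.09 ± 0.824 for diet (SE, edgeR adjusted p = 0.0824, DESeq2 adjusted p = 0.00189), -3.42 ± 0.874 for Tert (SE, edgeR adjusted p = 0.187, DESeq2 adjusted p = 0.00264) and -1.65 ± 0.797 for TertCi (SE, edgeR adjusted p = 0.367). In the F-test over the 4 groups Ccl28 had the lowest p of all members (edgeR adjusted p = 0.0993), and edgeR called 0 of 51 in that test, against 0.012% of all genes, with 16 at an unadjusted p under 0.05 (31.4%, against 20.2%). With the epididymal covariate that test called 9 members (5.31% of all genes), without HFD mCherry replicate 15 it called 7 (3.81%), without HFD Tert replicate 27 it called 5 (0.991%) and without SD mCherry replicate 3 it called 2 (3%). Mesothelial markers (8 genes) summed to 976 to 3250 CPM in SD mCherry, 371 to 913 in HFD mCherry, 883 to 2224 with Tert and 1011 to 1241 with TertCi. SD mCherry replicate 2, which had the highest Ccl28 level, had the lowest epididymal sum of its group, and Ccl28's own cell source was not tested.

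Cxcl14, which epithelial and stromal cells make, had 107, 41.3 and 371 CPM in SD mCherry, 65.5, 99.7 and 88.2 in HFD mCherry, 161, 126 and 13.4 with Tert, and 172, 14.9 and 119.5 with TertCi. Its lowest values were those of HFD Tert replicate 27 and HFD TertCi replicate 31, which held their groups' highest values for most of the 25 members averaging 20 CPM or more. Ccl25 had 2.49, 3.44 and 3.64 CPM in SD mCherry, 1.76, 1.86 and 1.91 in HFD mCherry, 1.92, 1.92 and 1.41 with Tert, and 3.97, 3.21 and 2.052 with TertCi. Its SD mCherry and TertCi libraries all lay above HFD mCherry, with differences of -0.79 ± 0.383 for diet (SE, edgeR adjusted p = 0.232) and 0.74 ± 0.383 for TertCi (SE, edgeR adjusted p = 0.404). Exons of Ccl25 overlap those of Elavl1. Ccl27a averaged 6.25 to 10.2 CPM over the 4 groups.

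Cxcl13, the B cell chemokine, had 8.03, 6.10 and 1.10 CPM in SD mCherry, 4.41, 4.44 and 2.74 in HFD mCherry, 10.7, 4.69 and 2.41 with Tert, and 4.28, 2.70 and 16.01 with TertCi. Cxcr5, its receptor, had 4.17, 6.63 and 3.30 CPM in SD mCherry, 3.53, 5.64 and 5.31 in HFD mCherry, 5.13, 3.57 and 2.41 with Tert, and 3.92, 2.57 and 4.15 with TertCi. Both overlapped in all groups. Ccr8, a chemokine receptor of T cells, had 0.0508, 0.242 and 0 CPM in SD mCherry, 0.110, 0.660 and 0.894 in HFD mCherry, 0.350, 0.693 and 0.469 with Tert, and 0.306, 0 and 0.651 with TertCi, or 15 counts at most in a library (diet 2.39 ± 1.32, SE, edgeR adjusted p = 0.282).

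HFD Tert was then set against HFD mCherry to ask how p21 promoter-driven Tert bore on the same genes. Members stood lower in the Tert libraries more often than higher, and conventional receptors most of all. The member median was -0.55 (all genes -0.05), with 13 members above 0 (25.5%, against 46.2% of all genes) and 38 below, and for the 16 receptors it was -1.05, with 15 below 0. edgeR called 0 members (0% of all genes called). At an unadjusted p under 0.05 there were 10 lower (19.6%, against 9.75% of all genes) and 0 higher (against 6.62%). The groups did not overlap for 5 members that were lower (9.8%, against 11.1% of all genes), among them Ccl12, Ccl28, Ccr3 and Cxcr3, and for 1 that was higher, Xcl1 (1.96%, against 9.99%). Those shares were near or under the background. DESeq2 called 4 of 50 members lower, among them Ccl28, Ccr3 and Cxcl5 (8%, against 3.1%), and 0 higher (against 1.79%).

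Cxcl5 differed by -2.71 ± 0.936 in the Tert comparison (SE, edgeR adjusted p = 0.229, DESeq2 adjusted p = 0.0352) and Cxcl3 by -1.47 ± 0.662 (SE, edgeR adjusted p = 0.304). Cxcl3 was at -2.61 without HFD Tert replicate 27 and at -1.04 without HFD Tert replicate 26. Xcl1, a T and NK cell ligand, had 0.524, 0.533 and 0.821 CPM with Tert and 0.221, 0.420 and 0.239 in HFD mCherry (1.08 ± 1.21, SE, edgeR adjusted p = 0.679). Ccl12 differed by -1.11 ± 0.396 (SE, edgeR adjusted p = 0.233). With the epididymal level as a covariate edgeR called 5 members lower, among them Ccl11, Ccr7, Cxcl2 and Ccr3 (5.97% of all genes called). The member median was -1.11 without HFD Tert replicate 27 and -0.25 without HFD mCherry replicate 17.

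HFD TertCi, set against the same HFD mCherry libraries, gave a member median of -0.54 (all genes -0.04), with 17 members above 0 (33.3%, against 47.4% of all genes) and 34 below. The member median was -0.30 without HFD mCherry replicate 17. The 16 receptors had a median of -0.99, with 14 below 0. edgeR called 0 members (0.012% of all genes called). At an unadjusted p under 0.05 there were 7 lower (13.7%, against 8.92% of all genes) and 1 higher, Ccl17 (1.96%, against 5.76%). The groups did not overlap for 8 members that were lower (15.7%, against 12% of all genes), among them Ccl8, Ccl11, Cxcl12, Ccr1, Ccr2, Ccr3 and Cxcr3, and for 2 that were higher, Ccl25 and Cx3cl1 (3.92%, against 9.45%). DESeq2 called 4 of 46 members lower, among them Ccl11, Ccr3 and Cxcl12 (8.7%, against 2.58%), and 0 higher (against 1.13%).

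Ccr1 differed by -1.26 ± 0.633 (SE, edgeR adjusted p = 0.388) and Ccr2 by -1.10 ± 0.582 (SE, edgeR adjusted p = 0.411). Ccl8 differed by -0.59 ± 0.526 (SE, edgeR adjusted p = 0.63), Cxcl5 by -2.61 ± 0.932 (SE, edgeR adjusted p = 0.257, DESeq2 adjusted p = 0.0505) and Cxcl3 by -1.66 ± 0.666 (SE, edgeR adjusted p = 0.29). The ligands with the highest levels per kilobase had differences of -0.59 ± 0.524 for Cxcl1 (SE, edgeR adjusted p = 0.629), -0.90 ± 0.457 for Cxcl2 (SE, edgeR adjusted p = 0.391), -0.80 ± 0.539 for Ccl2 (SE, edgeR adjusted p = 0.509) and -0.04 ± 0.533 for Ccl7 (SE, edgeR adjusted p = 0.979). The corresponding Tert values were -0.99 ± 0.528 for Cxcl1, -0.89 ± 0.457 for Cxcl2, -0.64 ± 0.538 for Ccl2 and -0.04 ± 0.533 for Ccl7 (SE, edgeR adjusted p = 0.367, 0.354, 0.565 and 0.977). Without HFD mCherry replicate 15, edgeR called Ccl11 and Cxcl12 lower (1.16% of all genes called), and with the epididymal level as a covariate it called Ccl11 lower (2.95%).

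**Figure D4:**
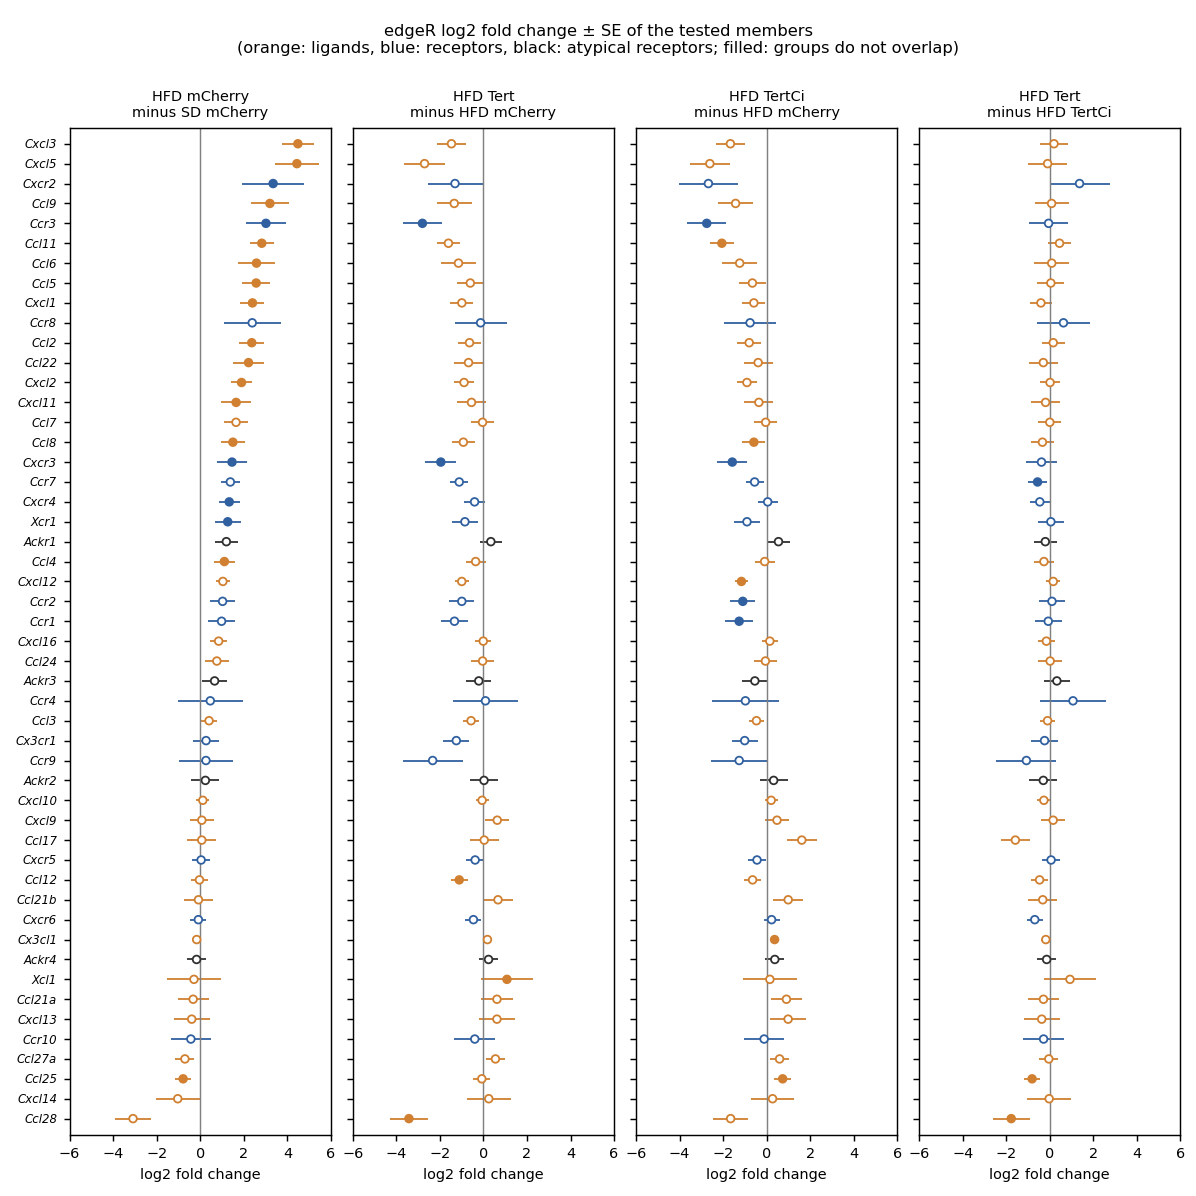
edgeR log2 fold change with its SE for 50 of the members tested, in 4 panels (HFD mCherry minus SD mCherry, HFD Tert minus HFD mCherry, HFD TertCi minus HFD mCherry, HFD Tert minus HFD TertCi), with ligands in orange, receptors in blue and atypical receptors in black, and filled points where the 2 groups do not overlap. Most points lie to the right of 0 in the diet panel (37 of 50) and to the left in the Tert and TertCi panels (37 and 33 of 50); these 3 panels share the HFD mCherry libraries.

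Tert and TertCi, which differ in catalytic activity, were compared directly. The member median was -0.10 (all genes -0.01), with 20 members above 0 (39.2%, against 48.2% of all genes) and 31 below, and it was 0.01 without HFD Tert replicate 25, 0.06 without replicate 26, -0.55 without replicate 27, 0.08 without HFD TertCi replicate 31, -0.23 without HFD TertCi replicate 30 and -0.40 with the epididymal covariate. edgeR called 0 members (0% of all genes), and DESeq2 called 0 (0.0181% of all genes higher and 0.0242% lower). At an unadjusted p under 0.05 edgeR counted 1 lower, Ccl17 (1.96%, against 0.592%), and 0 higher (against 0.766%). The groups did not overlap for 3 members lower in Tert, Ccl25, Ccl28 and Ccr7 (5.88%, against 2.58% of all genes), and for 0 higher (against 2.55%). Ccl28 differed by -1.77 ± 0.846, Ccl17 by -1.58 ± 0.677, Ccl25 by -0.81 ± 0.384 and Ccr7 by -0.56 ± 0.419 (SE, edgeR adjusted p = 1 for each). Ccl17 was at -0.83 without HFD TertCi replicate 31, and Ccr7 at -0.27 without HFD Tert replicate 26. These results do not show that the forms act alike.

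Macrophage markers were set beside the receptors. The 10 monocyte and macrophage genes, none of them at 0 in any library, summed to 925 to 986 CPM in SD mCherry, 1860.1 to 4668 in HFD mCherry, 766 to 1871 with Tert and 943 to 1306 with TertCi. In the diet comparison 10 of 10 were above 0 and DESeq2 called 8 higher (8.04% of all genes). In the Tert comparison 10 of 10 were below 0 with 7 called lower (3.1% of all genes), and in the TertCi comparison 9 of 10 were below 0 with 6 called lower (2.58%). edgeR called 0 in each. Csf1r, the growth factor receptor that defines the lineage, was at 60.7, 67.5 and 20.7 CPM in SD mCherry, 124, 306 and 282 in HFD mCherry, 38.7, 43.6 and 113 with Tert, and 43.1, 69.7 and 60.6 with TertCi. The other macrophage and monocyte lists had medians above 0 for diet and below 0 for Tert and TertCi. For resident perivascular macrophage genes these were 1.31, -0.82 and -0.73, with 7 of 10 above 0, then 7 and 6 of 10 below 0. For lipid-associated macrophage genes they were 2.27, -1.70 and -2.03, and for classical monocyte genes 1.02, -1.41 and -0.74. The resident perivascular sums did not follow that direction with Tert or TertCi. Resident perivascular macrophage genes (10) summed to 341 to 991 CPM in SD mCherry and 638 to 1243 in HFD mCherry. With Tert they summed to 707 to 1812 and with TertCi to 688 to 1773. In the same group order, lipid-associated macrophage genes (10) summed to 1060 to 1862, 2878 to 9276, 1620 to 3530 and 1367 to 2769. Classical monocyte genes (8) summed to 576 to 916, 989 to 3832, 727 to 1285 and 758 to 870. The part of macrophage number in the values of Ccr1, Ccr2, Ccl6 and Ccl9 was not tested.

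Genes around the chemokine system were taken from lists. Of 37 tested genes of chemokine receptor signalling (G protein subunits, PI3K gamma, Rac and Dock2, arrestins and regulators), 33 were above 0 in the diet comparison (45.9% of all genes) with a median of 1.06 (all genes -0.08). edgeR called 0 and counted 21 higher at an unadjusted p under 0.05 (14.1% of all genes), and DESeq2 called 17 higher (8.04%). Pik3r5, a regulatory subunit of PI3K gamma, had 28.3, 28.8 and 34.1 CPM in SD mCherry, 121, 339 and 335 in HFD mCherry, 63.0, 58.3 and 237 with Tert, and 71.5, 216 and 93.6 with TertCi. Its diet groups were well apart (3.12 ± 0.655, SE, edgeR adjusted p = 0.066, DESeq2 adjusted p = 0.000101). In the Tert comparison 25 of the 37 were below 0 (8998 of all 16713 genes), with a median of -0.52 (all genes -0.05). DESeq2 called 3 lower (3.1% of all genes). In the TertCi comparison 27 were below 0 (8786 of all 16713 genes), with a median of -0.47 (all genes -0.04). There DESeq2 called 3 lower (2.58%).

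Among 10 related ligands and receptors whose symbols fall outside the rule, DESeq2 called 4 higher on the high-fat diet (8.04% of all genes): Pf4, Ccrl2, Cmklr1 and Gpr35. In that comparison 8 of the 10 were above 0 and 2 below. For Tert and TertCi the list was divided, with 5 above 0 and 5 below in each (46.2% and 47.4% of all genes above 0). DESeq2 called Pitpnm3 higher (1.79%) and Ccrl2 and Gpr35 lower (3.1%) for Tert, and Ccrl2 lower for TertCi (2.58%). Ccrl2, a non-signalling receptor that presents chemerin, had 44.4, 31.7 and 30.6 CPM in SD mCherry, 67.7, 196 and 167 in HFD mCherry, 36.7, 49.1 and 64.6 with Tert, and 39.9, 51.2 and 52.1 with TertCi. HFD mCherry lay above all other libraries, with differences of 2.01 ± 0.372 for diet (SE, edgeR adjusted p = 0.066, DESeq2 adjusted p = 8.72e-05), -1.52 ± 0.366 for Tert (SE, edgeR adjusted p = 0.187, DESeq2 adjusted p = 0.00955) and -1.59 ± 0.367 for TertCi (SE, edgeR adjusted p = 0.168, DESeq2 adjusted p = 0.00686). Of 11 genes that process or present chemokines, 9 were above 0 in the diet comparison (45.9% of all genes), with a median of 1.03. DESeq2 called 6 higher (8.04% of all genes) and 1 lower (4.57%). In the Tert comparison 7 of the 11 were below 0 and 4 above (46.2% of all genes above), with 2 called lower by DESeq2 (3.1%). In the TertCi comparison 9 were below 0 and 2 above (47.4% of all genes above), with 2 called lower (2.58%). Adam17, a protease that sheds Cx3cl1, had 62.7, 80.2 and 69.0 CPM in SD mCherry, 97.1, 155 and 151 in HFD mCherry, 68.1, 64.1 and 90.5 with Tert, and 59.3, 79.4 and 58.7 with TertCi. HFD mCherry was again above all other libraries, with differences of 0.93 ± 0.234 for diet (SE, DESeq2 adjusted p = 0.0138), -0.85 ± 0.234 for Tert (SE, DESeq2 adjusted p = 0.0429) and -1.03 ± 0.235 for TertCi (SE, DESeq2 adjusted p = 0.0135), none called by edgeR (adjusted p = 0.076, 0.195 and 0.165).

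Of 23 inducers of chemokine genes (cytokines, their receptors and NF-kappaB subunits), 22 were above 0 in the diet comparison (45.9% of all genes) with a median of 0.81, and DESeq2 called 6 higher (8.04%): Nfkb1, Nfkb2, Tnf, Il1r1, Il6 and Il4ra. Nfkb1, the p50 precursor, had 149, 187 and 201 CPM in SD mCherry, 274, 828 and 705 in HFD mCherry, 299.5, 386 and 551 with Tert, and 353, 702 and 393 with TertCi. All 9 high-fat diet libraries were above the standard diet for Nfkb1 (1.75 ± 0.427, SE, edgeR adjusted p = 0.073, DESeq2 adjusted p = 0.0033). In the knock-in comparisons the list's medians were -0.23 for Tert (all genes -0.05) and -0.23 for TertCi (all genes -0.04). Both tools called 0 of the 23, with 0 and 2 lower at an unadjusted edgeR p under 0.05. The RNA of 10 immediate early and heat shock genes, a list added after the values had been seen because dissociation of tissue can raise them, summed to 8635 to 15193 CPM in SD mCherry, 7852 to 10009 in HFD mCherry, 7711 to 8749 with Tert and 7757 to 9293 with TertCi. The part of dissociation in the chemokine values was not tested.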

How the data were processed

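Poly-A selected RNA of adipose stromal cells was sequenced in 12 libraries, per the labels' protocols. For each library the authors deposited raw counts of reads in 24422 gene rows. Subread, SAMtools, featureCounts 1.6.4 and the build mm10 are named in the submitters' processing notes. Aligner settings, annotation and use of strand are not given in the sources used here, and without strand, reads of overlapping genes cannot be told apart.

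Counts were used as deposited. filterByExpr, given the 4 groups, kept 16713 genes, which were scaled by TMM factors (0.855 to 1.15), and fitted in 1 quasi-likelihood model without covariates over all 12 libraries, with robust dispersion, in edgeR 4.0.16 (R 4.3.3). The biological coefficient of variation (common value) was 0.536. There were 8 residual degrees of freedom and 2.71 prior ones (median). Each test was 2-sided, and p-values were adjusted by Benjamini-Hochberg over all genes tested in each of the 4 comparisons and an F-test, and a threshold of 0.05. SE is an approximate standard error, the size of the log2 fold change divided by the square root of its quasi-likelihood F statistic. SD is the spread over 3 libraries. DESeq2 1.42.0 and limma-voom (limma 3.58.1) were alternatives, as were other scalings, no filter, a covariate for the epididymal level, and leaving out each library. The pipeline was tested on simulated data. No pair of replicates had counts within sampling noise (chi-square divided by its degrees of freedom was at least 21.6).

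Values in every library are given for members averaging 20 CPM or more, members called by edgeR or DESeq2, up to 4 of the highest and 4 of the lowest non-overlapping members per comparison, and listed ligand and receptor pairs, 44 members in all, of which 1 is counted in the totals but not reported here. Values of other members, and single genes from the lists, were added for context after they had been seen. The members, lists and tests were chosen with earlier results of these data known. Positions and exon overlaps are from GENCODE M21 (GRCm38, the same assembly as mm10), and promoters from RefSeq.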

Additional observations from a re-analysis of the deposited data

How the results depend on the processing

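edgeR called 0 members in each comparison and in the F-test. With DESeq2 the counts of called members were 16 for diet, 4 for Tert and 4 for TertCi. With the epididymal level as a covariate they were 11, 5 and 1, and 9 in the F-test. Leaving out 1 library at a time gave 0 to 15 for diet (15 without HFD mCherry replicate 15, 9 without HFD Tert replicate 27), 0 to 2 for TertCi (2 without HFD mCherry replicate 15), 0 to 7 in the F-test (7 without HFD mCherry replicate 15, 5 without HFD Tert replicate 27, 2 without SD mCherry replicate 3), and 0 throughout for Tert and for Tert against TertCi. The cause was not tested. RLE scaling, library size alone, no filter, no robust estimation, limma-voom and a fit of only the 6 libraries compared gave 0 in every comparison they were run for. Up to 20 alternatives were run for 52 fold changes of named members. These were chosen for non-overlapping groups, an unadjusted edgeR p under 0.05 or a DESeq2 call in the data themselves. All 52 kept their direction, which that choice favours, and 26 passed the threshold under at least 1. Scaling by library size alone moved the diet median of all genes to -0.28 and that of members to 0.71, the Tert medians to 0.04 and -0.43, and the TertCi medians to 0.07 and -0.40. No paired analysis was possible because no replicate number occurs in more than 1 group. Members near or under 1 CPM, such as Cxcr2, Cxcr3, Ccr4, Ccr8 and Xcl1, rest on a few counts, and depth limits what can be said of them.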
